A study of Mus musculus with 4 samples.

Results

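Metallothioneins and the transporters that set cellular zinc were read on whole-transcript arrays of sorted mouse small intestinal cells. The set holds 9 of the 30705 genes measured: the metallothionein genes Mt1, Mt2, Mt3 and Mt4, the metal-sensing transcription factor gene Mtf1, the exporter genes Slc30a1 and Slc30a10, and the importer genes Slc39a4 and Slc39a5. They were picked by name, and each had 1 array feature whose platform annotation carried a single gene symbol. The genes were listed with the array differences already known, so their counts and differences are a description of these arrays.

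There were 4 groups with 1 array each. The first was LncGata6 mutant Lgr5GFP+ cells, labelled as stem cells with a mutated LncGata6, a long noncoding RNA. The second was Ehf knockout (Ehf-/-) Lgr5GFP+ cells, labelled as stem cells lacking Ehf, an ETS factor of epithelia. The third was wild-type Lgr5GFP+ stem cells, and the fourth wild-type Lgr5GFP- non-stem cells. By the protocol given for every sample, the cells came from Lgr5GFP-CreERT2 mice, in which GFP and a tamoxifen-dependent Cre recombinase are made where Lgr5, an R-spondin receptor gene of crypt base stem cells, is active. The labels put the mice at 8 weeks of age, name GFP gating in the source of each sample, and in the collection protocol name a sort for ILCreg, an innate lymphoid population. How many animals gave each RNA, how LncGata6 was mutated and whether Cre had been induced are not given in the sources used here.

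Metallothioneins are small cysteine-rich proteins that hold zinc and copper ions and bind toxic metals such as cadmium. When free zinc rises, the zinc finger protein MTF1 binds metal response elements in the promoters of Mt1, Mt2 and the zinc exporter gene Slc30a1 and activates them. Glucocorticoids and cell stress also induce Mt1 and Mt2. In the gut, dietary zinc enters enterocytes through the apical importer ZIP4 (Slc39a4) and leaves at the basolateral side through ZnT1 (Slc30a1).

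With 1 array per group no difference has an error, and no test could be made. Values are log2 array intensities after the authors' processing. A gene was called higher or lower when its 2 values differed by at least 1 on the log2 scale, which is 2-fold, and the brighter one stood at or above the 75th percentile of all genes on that array. The control limit of an array is the 95th percentile of its 5222 negative control features. It lay at 5.31 in LncGata6 mutant cells, 5.19 in Ehf knockout cells, 5.62 in wild-type stem cells and 5.16 in non-stem cells. A fold whose dimmer value lies under that limit is computed against the limit and given as "at least".

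The labels were checked first. Lgr5 read 3.03 and 2.79 on the LncGata6 mutant and Ehf knockout arrays, 9.41 in wild-type stem cells and 3.03 in non-stem cells. By this gene, both arrays labelled as mutant Lgr5GFP+ stem cells went against that label. Only the wild-type stem array carried Lgr5 above its control limit. Of 6 measured crypt base stem markers, Lgr5 among them, 3 reached the limit in LncGata6 mutant cells and 1 in Ehf knockout cells. In wild-type stem cells 4 did, and in non-stem cells 2. Ehf read 5.09 in LncGata6 mutant cells, 3.03 in Ehf knockout cells, 6.99 in wild-type stem cells and 3.75 in non-stem cells, so it was above the limit on the wild-type stem array alone. Its low value therefore does not by itself check the Ehf knockout label. LncGata6, taken here as the gene listed as Gata6os, read 4.37 on the array labelled LncGata6 mutant against 4.92 on the wild-type stem array, both under the limits, which checks nothing. Of 9 general epithelial markers, 0 reached the control limit on the Ehf knockout array and all 9 did on each of the other 3 arrays, so the epithelial label of the Ehf knockout cells was not borne out. All 7 neutrophil markers reached it on the Ehf knockout array, 5 on the non-stem array and 0 on the other two. All 7 measured hepatocyte markers and all 8 kidney tubule markers reached it on the non-stem array and 0 on the other 3 arrays. All 7 T cell markers did so in LncGata6 mutant cells, 4 in Ehf knockout cells, 2 in wild-type stem cells and 4 in non-stem cells. Summed over a list, the log2 values in LncGata6 mutant, Ehf knockout, wild-type stem and non-stem cells were 83.0, 31.5, 78.7 and 62.7 for the general epithelial markers, 16.8, 71.7, 17.6 and 41.2 for the neutrophil markers. The same sums were 61.4, 38.2, 33.9 and 38.1 for the T cell markers, 18.1, 14.5, 18.9 and 75.6 for the hepatocyte markers and 20.6, 18.6, 20.5 and 76.1 for the kidney tubule markers. In such bulk samples, fewer cells of a type and less RNA per cell cannot be told apart. The part of these cell types in the values that follow was not tested.

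Mt1 and Mt2 alone of the 9 genes were above the control limit on all 4 arrays, and both were highest on the wild-type stem array. Mt1 read 6.91 in LncGata6 mutant cells, 7.66 in Ehf knockout cells, 9.66 in wild-type stem cells and 8.67 in non-stem cells. Mt2 read 5.85, 7.55, 9.33 and 8.26 on the same arrays in the same order. Both genes therefore ran in 1 order, wild-type stem, non-stem, Ehf knockout and LncGata6 mutant, from high to low. Without replicates, it is not known which neighbours in that order differ beyond the spread between arrays.

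**Figure D1:**
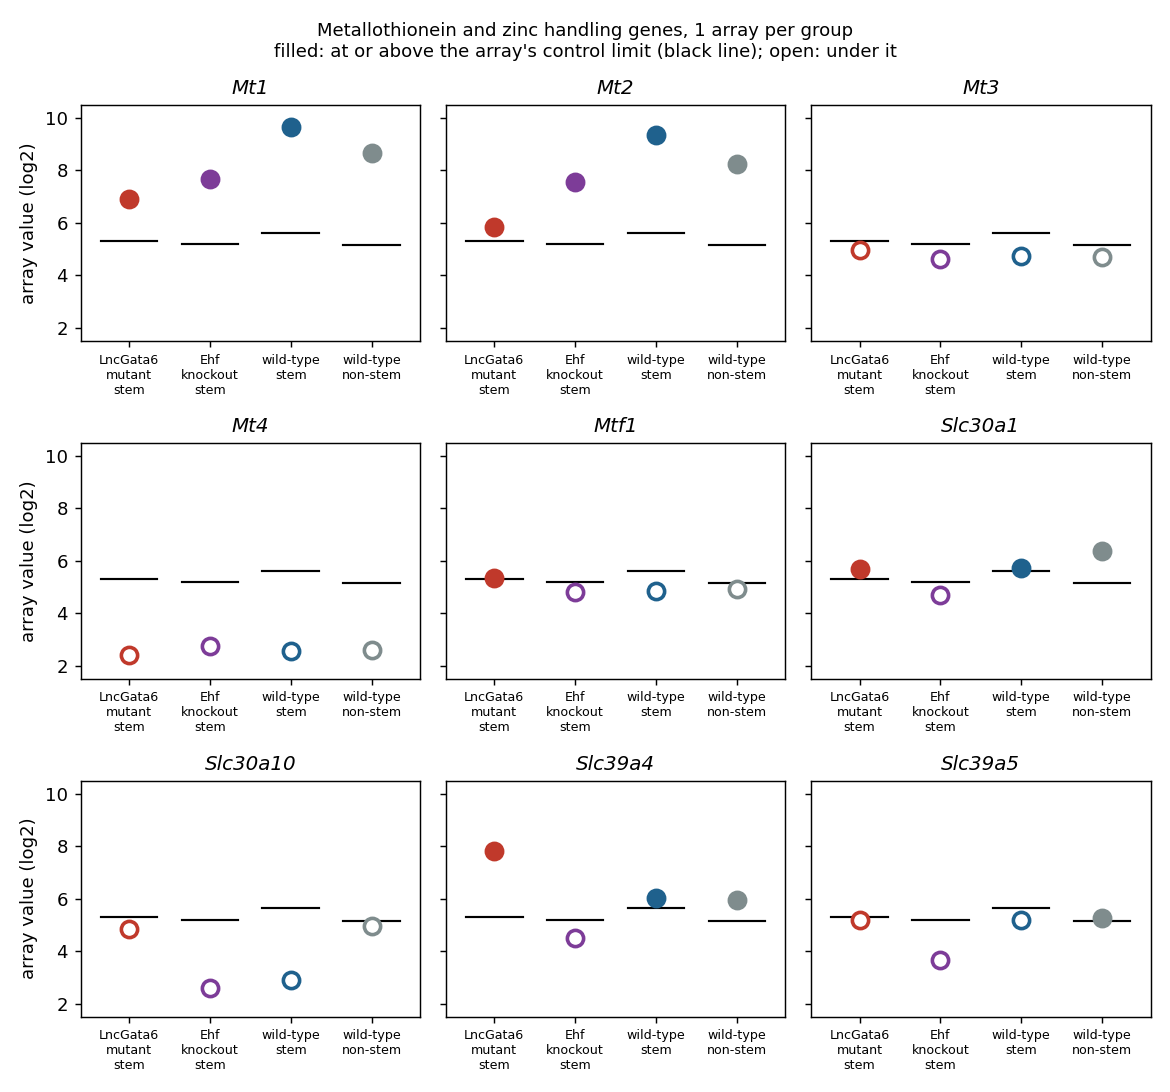
Log2 array value of each of the 9 genes (vertical axis) on the 4 arrays (horizontal axis), 1 point per array. Black lines are the control limits, filled points lie at or above them and open points under them. Mt1 and Mt2 are filled on all 4 arrays and peak at 9.66 and 9.33 on the wild-type stem array. Slc39a4 peaks at 7.82 on the LncGata6 mutant array.

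The 4 metallothionein genes lie in a cluster on chromosome 8. Mt1 and Mt2 are close paralogs, and whether their array probes also bind each other's transcripts was not tested. Promoter sequences were found for 8 of the 9 genes in RefSeq (GRCm38.p6). Those of Mt1 and Mt2 are shown because the genes took the same order over the arrays. That of Slc30a1 is shown because the same factor activates it and it took another order. Like Mt1 and Mt2, Slc30a1 was lower on the Ehf knockout array than on the wild-type stem array. Each window runs from 250 bases before to 50 bases after an annotated transcription start, 5′ to 3′ on the plus strand. Capitals mark matches to the core of the metal response element, searched as TGCACNC and TGCGCNC on both strands, so a reverse-strand match is printed as its complement.
Mt1, chr8:94178839-94179138: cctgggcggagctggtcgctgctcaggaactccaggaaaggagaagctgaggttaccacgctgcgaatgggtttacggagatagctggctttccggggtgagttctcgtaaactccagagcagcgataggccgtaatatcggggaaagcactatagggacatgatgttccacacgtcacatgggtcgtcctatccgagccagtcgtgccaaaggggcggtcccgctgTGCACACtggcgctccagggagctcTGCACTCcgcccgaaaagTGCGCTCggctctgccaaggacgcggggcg
Mt2, chr8:94172368-94172667: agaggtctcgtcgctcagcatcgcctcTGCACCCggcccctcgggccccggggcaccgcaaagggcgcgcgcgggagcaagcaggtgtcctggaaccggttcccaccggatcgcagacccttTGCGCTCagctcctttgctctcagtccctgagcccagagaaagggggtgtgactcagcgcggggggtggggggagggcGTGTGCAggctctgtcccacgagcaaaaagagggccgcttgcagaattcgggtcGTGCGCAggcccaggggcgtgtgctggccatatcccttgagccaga
Slc30a1, chr1:191906531-191906830: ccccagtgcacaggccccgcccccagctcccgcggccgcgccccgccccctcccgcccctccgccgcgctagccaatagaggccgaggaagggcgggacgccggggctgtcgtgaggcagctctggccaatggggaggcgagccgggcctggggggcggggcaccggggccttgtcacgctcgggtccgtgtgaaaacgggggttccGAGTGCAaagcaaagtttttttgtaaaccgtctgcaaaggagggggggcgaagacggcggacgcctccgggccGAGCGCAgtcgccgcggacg

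The Mt2 window held 4 matches, 2 on each strand, and the Mt1 window 3, all on the plus strand. The Slc30a1 window held 2, both on the minus strand. Slc30a10, which did not share the metallothionein order, also had 3 matches, of which 2 overlap on opposite strands. Mt3, Mt4 and the upstream one of the Slc39a5 windows held 1 each, and the Mtf1 window 0. Of all 32851 promoter windows of this length in the table, 25.7% held at least 1 match, 1.97% at least 3 and 0.517% at least 4. The Mt1 and Slc30a1 windows are set on starts inside those genes, whose first annotated bases are 94178883 and 191906697. The Mt2 window is set on the first annotated base of its gene, so the counts are not of like stretches. Matches outside the windows were not searched. A match describes these letters and is not a measured binding site.

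Against the wild-type stem array, the LncGata6 mutant array was lower in both expressed metallothioneins and higher in the apical zinc importer. Mt2 read 5.85 on the LncGata6 mutant array against 9.33 on the wild-type stem array, which is 11.2-fold lower, a difference of -3.48 and the 15th lowest of all 30705 genes. Mt1 read 6.91 on the LncGata6 mutant array against 9.66 on the wild-type stem array, 6.72-fold lower, the 42nd lowest difference. Slc39a4 read 7.82 on the LncGata6 mutant array against 6.02 on the wild-type stem array, 3.49-fold higher, the 386th highest difference. In all, 3 of the 9 genes were called, 1 higher and 2 lower, where 5.81% of all genes were called, 2.8% higher and 3.01% lower. The median difference was 0.00 over the 9 genes and -0.06 over all genes.

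The zinc exporter did not accompany the metallothioneins. Slc30a1 read 5.69 on the LncGata6 mutant array against 5.73 on the wild-type stem array, a difference of -0.03. Mtf1 itself read 5.34 against 4.86, a difference of 0.48 that missed the fold limit, with the wild-type stem value under its control limit. Slc39a5, the basolateral zinc importer of enterocytes, read 5.20 on both arrays. Slc30a10, known as a manganese exporter, read 4.85 on the LncGata6 mutant array against 2.91 on the wild-type stem array. That difference of 1.94 was the 323rd highest, but both values lay under the control limits, so no fold is given. It was not called because its brighter value was under the 75th percentile of genes on the LncGata6 mutant array (4.93).

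Other genes that MTF1 is known to control were not called on the LncGata6 mutant array. Of 9 such genes, 2 were lower (Mt1 and Mt2) and 0 higher, with a median difference of -0.60, against -0.06 over all genes. Gclc, for the catalytic subunit that makes the glutathione precursor, read 6.33 on the LncGata6 mutant array against 6.01 on the wild-type stem array. Slc39a10, a zinc importer gene that MTF1 represses in mice, read 4.17 against 4.96, both under the limits. Pgf, also on the list, read 2.82 against 2.79. Both genes were under the 75th percentile on both arrays (4.93 and 4.97), so neither could be called whatever its difference. Csrp1, a LIM domain protein gene, read 5.80 against 6.40, and Ndrg1, a stress-responsive gene, read 5.20 against 6.09.

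Several gene lists were lower on the same array. Among the genes of the immediate early and heat shock responses, which cell handling and proteotoxic stress induce, this held for most. Of the 12 measured, 7 were lower on the LncGata6 mutant array and 0 higher (median -1.17). Fosb, a subunit of the AP-1 factor, read 5.96 on the LncGata6 mutant array against 8.51 on the wild-type stem array, 5.85-fold lower. Ier3 was at least 3.61-fold lower, Egr1 4.75-fold and the chaperone gene Hsph1 3.96-fold. Among 8 glucocorticoid targets (median -0.34), Klf9 was at least 2.21-fold lower and Dusp1 2.07-fold lower, and 0 were higher. Dusp1 is on both lists and is also 1 of the 7 immediate early and heat shock genes counted above. Fkbp5, a sensitive glucocorticoid target, lay under the limits on both arrays at 4.02 and 4.01. All 7 Paneth cell markers were lower too (median -1.84), as were 4 of 6 crypt base stem markers (-1.79) and 3 of 4 endothelial markers (-1.84). The Paneth markers at or above the control limit numbered 6 in LncGata6 mutant cells, 1 in Ehf knockout cells, 7 in wild-type stem cells and 1 in non-stem cells. Their summed log2 values were 57.5, 25.8, 70.9 and 30.9 in that order. The part of handling or of these cell types in the metallothionein values was not tested.

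Genes of absorptive cells stood higher on the same array, on which Slc39a4 was higher too. All 11 measured zinc-dependent enzymes of the brush border were higher on the LncGata6 mutant array, with a median difference of 2.91. They included Enpp3 (at least 35.8-fold), Mme (at least 19.4-fold), Enpp7 (at least 19.0-fold) and intestinal alkaline phosphatase Alpi (14.3-fold). All 7 enterocyte markers were also higher, with a median difference of 4.20, and all 7 T cell markers, with a median of 4.26. Their part in the Slc39a4 value was not tested.

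**Figure D2:**
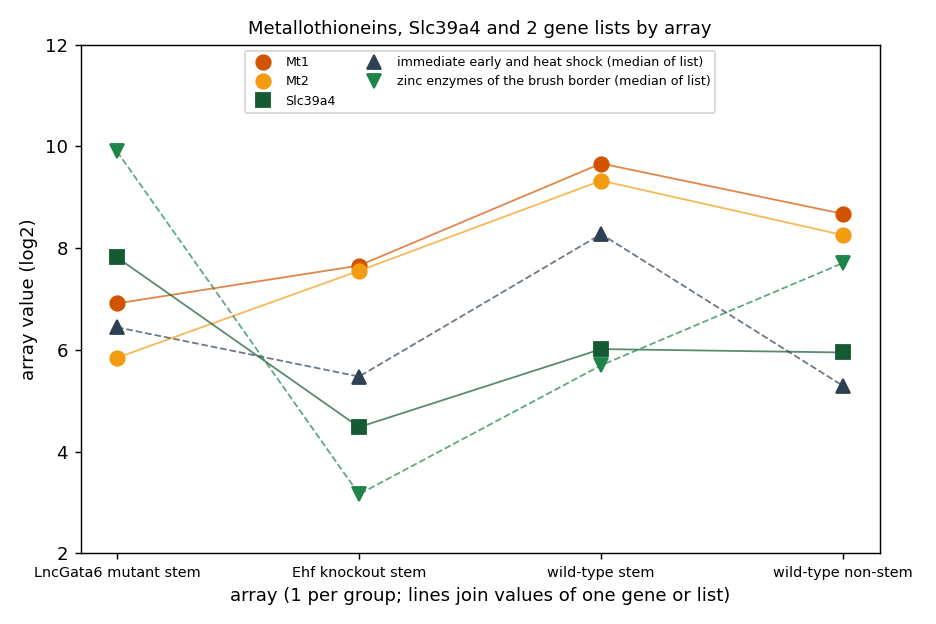
Log2 values (vertical axis) of Mt1, Mt2 and Slc39a4 and the medians of 2 gene lists on the 4 arrays (horizontal axis), where lines only join the values of a gene or list. Mt1, Mt2 and the immediate early and heat shock median (8.28) are highest on the wild-type stem array. That median falls from LncGata6 mutant (6.45) through Ehf knockout (5.48) to non-stem cells (5.29). Mt1 (6.91, 7.66 and 8.67) and Mt2 (5.85, 7.55 and 8.26) rise in that order. The part of handling or of the differing cell types in either order was not tested. Slc39a4 and the brush border enzyme median (9.90) are highest on the LncGata6 mutant array.

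In Ehf knockout cells, 5 of the 9 genes were lower than on the wild-type stem array and 0 were higher, where 7.87% of all genes were called, 2.59% higher and 5.28% lower. Mt1 read 7.66 on the Ehf knockout array against 9.66 on the wild-type stem array, 4.02-fold lower. Mt2 read 7.55 against 9.33, 3.41-fold lower. Slc39a4 read 4.48, under the control limit, against 6.02 on the wild-type stem array, at least 1.77-fold lower. Slc39a5 read 3.64 on the Ehf knockout array against 5.20 on the wild-type stem array, both under the limits, so it was called without a fold, and the call ends where the brighter value must reach the control limit. Slc30a1 read 4.71 against 5.73, at least 1.45-fold lower, and this call ended under median centring (-0.83), quantile normalization (-0.69) and cyclic loess (-0.66). The median difference was -1.02 over the 9 genes and -0.20 over all genes.

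Mt1 and Mt2 thus stayed above the control limit on an array on which 0 of 9 general epithelial markers did. All 9 of those markers were called lower there, as were all 7 Paneth markers and 5 of 6 crypt base stem markers. All 7 neutrophil markers were called higher, with values of 8.62 to 11.7 on the Ehf knockout array against 1.51 to 3.89 on the wild-type stem array. All 6 macrophage markers were called higher as well. Immediate early and heat shock genes were lower in 11 of 12 cases (median -2.35), such as Hspa1a at least 14.2-fold, Atf3 at least 10.0-fold, Jun 11.4-fold and Fosb 7.73-fold. Of the MTF1-controlled genes, Ndrg1 was also lower, at least 1.87-fold, while Gclc read 6.81 on the Ehf knockout array against 6.01 on the wild-type stem array. The brush border zinc enzymes were lower in 6 of 11 cases, such as Anpep (at least 17.5-fold) and Enpep (at least 6.32-fold).

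Both mutant arrays were compared with the same wild-type stem array, so their shared direction for Mt1 and Mt2 rests on 1 array of wild-type stem cells. When the mutant arrays were set against each other, 3 of the 9 genes were called, 2 of them higher in LncGata6 mutant cells and 1 lower, where 9.63% of all genes were called, 6.16% higher and 3.47% lower. Mt2 read 5.85 on the LncGata6 mutant array against 7.55 on the Ehf knockout array, 3.27-fold lower. Mt1 read 6.91 against 7.66, a difference of -0.74 that missed the fold limit. In this comparison 5 of 7 Paneth markers were higher in LncGata6 mutant cells and 0 lower, and 3 of 12 immediate early and heat shock genes were higher and 0 lower. Slc39a4 read 7.82 on the LncGata6 mutant array against 4.48 on the Ehf knockout array, at least 6.18-fold higher. Slc39a5 was called higher by 1.56 with both values under the limits. Slc30a1 differed by 0.99, just short of the fold limit, and Mtf1 by 0.51. Slc30a10 differed by 2.27, from values of 4.85 on the LncGata6 mutant array and 2.58 on the Ehf knockout array that were both under the limits.

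**Figure D3:**
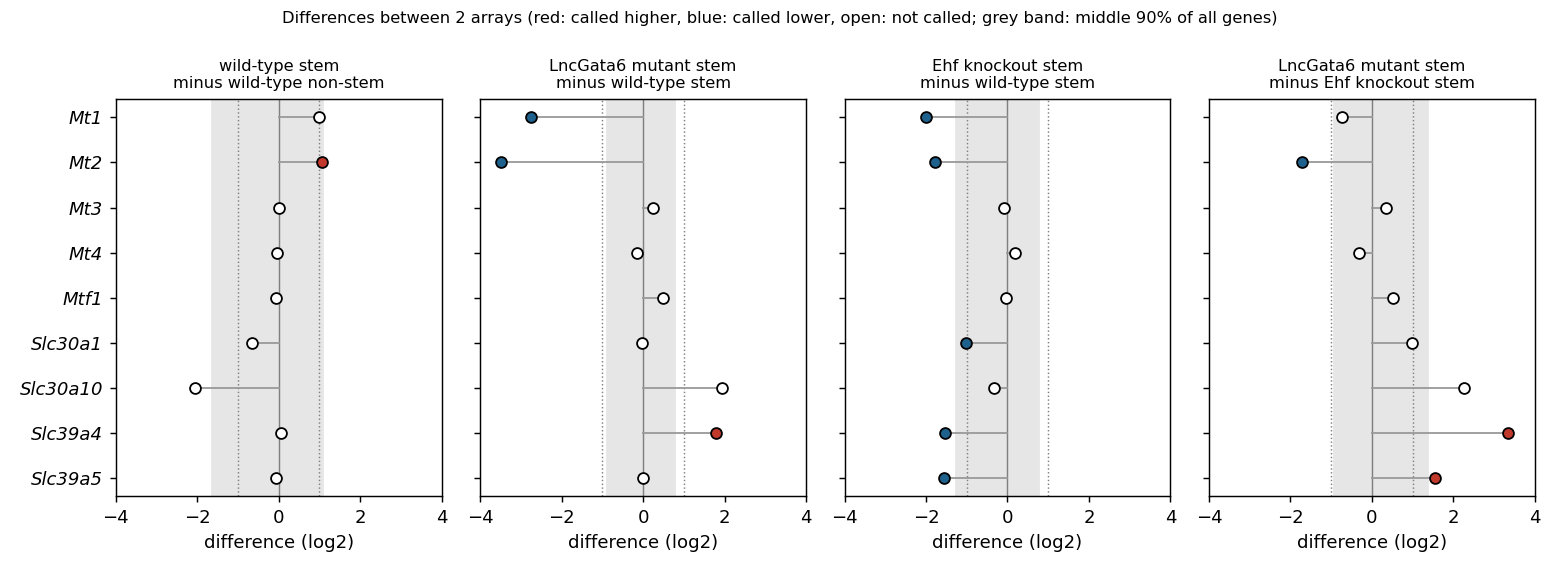
Difference in log2 value (horizontal axis) of the 9 genes (vertical axis) in 4 comparisons, with called genes filled and the grey band holding the middle of the distribution of all genes, from its 5th to its 95th percentile. In the LncGata6 mutant comparison Mt2 (-3.48) and Mt1 (-2.75) lie left of the band and Slc39a4 (1.80) right of it. Slc30a10 (1.94) also lies right of the band but was not called.

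Between wild-type stem and non-stem cells, 1 of the 9 genes was called, where 10.9% of all genes were, 3.83% higher and 7.07% lower on the stem array. Mt2 read 9.33 on the stem array against 8.26 on the non-stem array, 2.10-fold higher. Mt1 read 9.66 on the stem array against 8.67 on the non-stem array, 1.99-fold higher, and just missed the fold limit. It passed under median centring (1.11) and quantile normalization (1.07). Slc30a1 read 5.73 on the stem array against 6.38 on the non-stem array (difference -0.65). Slc39a4 read 6.02 and 5.95 on those arrays, and Slc39a5 read 5.20 and 5.28. Slc30a10 read 2.91 on the stem array against 4.97 on the non-stem array, both under the limits. The non-stem array held the hepatocyte markers at 9.48 to 12.5 and the kidney tubule markers at 6.99 to 12.3. Both organs express metallothioneins, and their part in the non-stem values was not tested. In the same comparison 11 of 12 immediate early and heat shock genes were higher on the stem array (median 2.61), with Fosb at least 10.2-fold, Hspa1a at least 14.5-fold, Atf3 at least 10.3-fold and Jun 10.3-fold. All 7 Paneth markers were higher there too (median 6.03), as were 4 of 6 crypt base stem markers. Of the MTF1-controlled genes, Ndrg1 was 17.1-fold and Gclc 10.3-fold lower on the stem array.

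The remaining metallothioneins lay under the control limits throughout. Mt3, known from brain, read 4.97 in LncGata6 mutant cells, 4.62 in Ehf knockout cells, 4.72 in wild-type stem cells and 4.71 in non-stem cells. Mt4, known from stratified squamous epithelia such as skin and tongue, read 2.42, 2.73, 2.56 and 2.60 in the same order. All 8 values were under the control limits and none differed by the fold limit between any of the arrays compared. Mtf1 read 5.34 in LncGata6 mutant cells, 4.82 in Ehf knockout cells, 4.86 in wild-type stem cells and 4.92 in non-stem cells, and passed its limit on the first only. In total 6 of the 9 genes reached the control limit on at least 1 array. Mt3, Mt4 and Slc30a10 did not.

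Both zinc transporter families were then read in full. ZnT proteins move zinc out of the cytosol, either out of the cell or into vesicles, and ZIP proteins move it in. Of 10 ZnT genes, 6 reached the control limit in LncGata6 mutant cells, 1 in Ehf knockout cells, 5 in wild-type stem cells and 7 in non-stem cells. Of 14 ZIP genes, 4, 2, 3 and 11 did so in the same order. Over all genes the share that did so was 20.1%, 17.5%, 16.5% and 26.5%. The limit ran from 5.16 on the non-stem array to 5.62 on the wild-type stem array, so these counts are not taken at a like level.

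On the LncGata6 mutant array 0 of 10 ZnT genes were called, with a median difference of 0.19 from the wild-type stem array. Of the 14 ZIP genes, 2 were higher and 1 lower (median 0.02). Over all genes 2.8% were called higher and 3.01% lower (median -0.06). Slc39a4 was the higher one with both values above the limits. Slc39a9, a Golgi and plasma membrane importer gene, read 6.73 on the LncGata6 mutant array against 5.26 on the wild-type stem array, at least 2.15-fold higher. Slc39a8, whose product carries zinc and manganese, read 4.73 against 5.76, at least 1.36-fold lower.

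On the Ehf knockout array 3 of 10 ZnT genes and 3 of 14 ZIP genes were lower than on the wild-type stem array, and 0 of either family were higher. Over all genes 5.28% were called lower and 2.59% higher. Slc30a4, for a vesicular zinc transporter, read 3.65 on the Ehf knockout array against 6.39 on the wild-type stem array, at least 2.30-fold lower. Slc30a6, whose product acts in the Golgi, was at least 1.44-fold lower. Slc30a1 is also among these ZnT genes, and its call ended under median centring, quantile normalization and cyclic loess. Under those settings single calls were read for the 9 genes only, so those of Slc30a4, Slc30a6 and Slc39a8 were not followed. Slc39a8 was at least 1.48-fold lower and stood under the limit there at 4.28. Medians were -0.61 over ZnT and -0.41 over ZIP genes, against -0.20 over all genes.

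Compared between the mutants, 4 ZnT and 4 ZIP genes were higher in LncGata6 mutant than in Ehf knockout cells and 0 were lower. Over all genes 6.16% were called higher and 3.47% lower. Medians were 1.03 over ZnT and 0.33 over ZIP genes, against 0.13 over all genes. Slc30a4 was at least 3.30-fold higher, Slc39a9 at least 2.90-fold, Slc30a6 at least 1.79-fold and Slc30a5, for a transporter of the secretory pathway, 2.09-fold. Slc30a2, Slc39a5 and Slc39a14 were called from values under the limits. Between wild-type stem and non-stem cells, Slc30a4 was 2.09-fold higher on the stem array, and Slc30a9, Slc39a1 and Slc39a13 were lower. Slc39a13 read 4.26 on the stem array against 5.29 on the non-stem array. Both values lie under the stem array's limit, so no fold is given. Slc39a1, a widely expressed importer gene, read 5.76 on the stem array against 6.93 on the non-stem array, 2.24-fold lower. Slc30a2, whose product loads zinc into Paneth cell granules, read 5.13 in LncGata6 mutant cells, 3.68 in Ehf knockout cells, 4.58 in wild-type stem cells and 5.58 in non-stem cells, above the limit on the last only. All 7 Paneth markers were above the limit on the wild-type stem array, on which Slc30a2 was not.

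**Figure D4:**
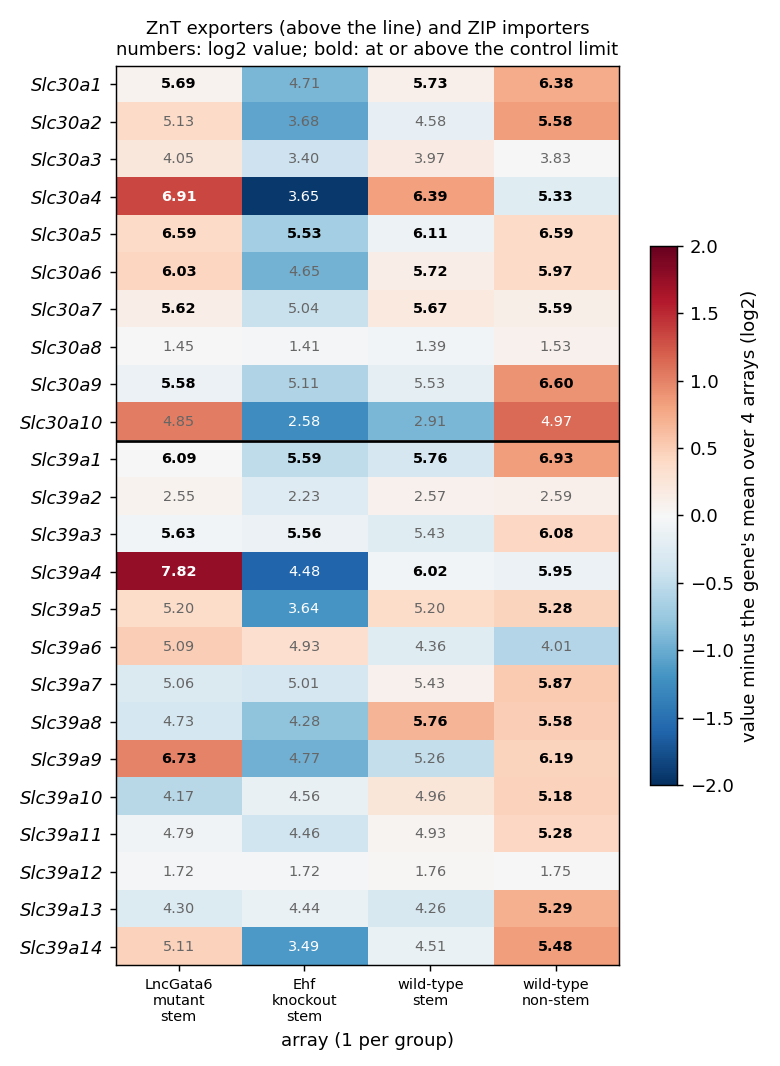
Log2 values of the 10 ZnT and 14 ZIP genes (rows) on the 4 arrays (columns), with colour giving the value minus the gene's mean over the arrays and bold type marking values at or above the control limit. Slc39a4 ranges from 7.82 on the LncGata6 mutant array to 4.48 on the Ehf knockout array, and Slc30a4 from 6.91 to 3.65.

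Likeness of pattern was measured as the Euclidean distance between log2 profiles over the 4 arrays, each centred on its own mean, among the 9524 genes that reached the control limit on at least 1 array. Mt1 was the closest of these genes to Mt2 (distance 0.72), and Mt2 was the 4th closest to Mt1. The 3 genes outside the set closest to Mt1 were Plat, for tissue plasminogen activator (0.50), Qser1 (0.60) and Tagln, for the actin-binding protein transgelin (0.66). Those closest to Mt2 were Tagln (0.98), Thbs1, for the matrix protein thrombospondin (1.05), and Plat (1.14). Plat read 3.66 in LncGata6 mutant cells, 3.97 in Ehf knockout cells, 5.95 in wild-type stem cells and 4.73 in non-stem cells, so it passed its limit on the wild-type stem array alone. The nearest genes to Slc39a4 were Sec23a, for a coat protein of vesicles leaving the endoplasmic reticulum (0.09), Stap2 (0.25) and the transcription factor gene Tbx3 (0.30). Sec23a read 8.01, 4.68, 6.25 and 6.06 in the order LncGata6 mutant, Ehf knockout, wild-type stem and non-stem. With 4 arrays and so many genes, small distances are found for many genes, and these neighbours describe the arrays only.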

How the data were processed

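Total RNA of 4 sorted samples, 1 per group, was labelled for Affymetrix whole-transcript arrays (Clariom D mouse, per the design text of the labels). The table deposited by the authors has a log2 value for each feature and array. The submitters' processing notes name RMA and Affymetrix Power Tools, and their versions and the genome build are not given in the sources used here. That the scale is log2 follows from the range of the values, -0.18 to 13.1, and how they were centred is not stated. RMA compresses differences of dim features.

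Feature symbols came from the platform annotation and were updated through RefSeq. This gave 31261 features with 1 symbol, 1489 with several, left out, and 39938 unnamed here. A gene with several features was represented by the brightest. Each comparison is a difference between 2 arrays, and the number of arrays limits its precision. The genes and lists were chosen with earlier results of these data known. Named were all 9 genes, up to 4 called genes per list and comparison by size, and the 3 nearest profiles of Mt1, Mt2 and Slc39a4, besides list genes at other values chosen after these were seen. Alternatives were median centring, quantile normalization, cyclic loess (limma 3.58.1), the mean of a gene's features, 2 other limits on the brighter value and 2 other fold limits. Python 3.11.15 was used.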

Additional observations from a re-analysis of the deposited data

How the results depend on the processing

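No paired analysis was possible because each group had 1 array. Of 36 differences (9 genes in 4 comparisons), 0 of the called ones changed sign under the 3 scalings or the mean of features. Some small uncalled ones did, such as Mtf1 between stem and non-stem cells, at -0.06 as deposited and 0.05 under median centring. The mean of features cannot alter the 9 genes, which have 1 feature each. Under these settings 139 values kept their call and 5 crossed a limit: Mt1 between stem and non-stem cells and Slc30a1 on the Ehf knockout array, as given above. Mt2 in the LncGata6 mutant comparison ran from -3.48 to -3.22. The number of the 9 genes called between stem and non-stem cells was 1, and became 2 under median centring, under quantile normalization and with no limit on the brighter value, 0 with a difference of at least 2 and 3 with at least 0.5. With at least 2, it was 1 on the Ehf knockout array against wild-type stem and 1 between the mutants, and with at least 0.5 it was 6 between the mutants. Over all genes, a difference of at least 2 called 1431 between stem and non-stem cells, 430 for LncGata6 mutant, 858 for Ehf knockout and 1202 between the mutants, and at least 0.5 called 5868, 4289, 5003 and 5316. Without a limit on the brighter value, 5027 were called between stem and non-stem cells. Scaling also turned the split of calls over all genes. Quantile normalization gave 1732 higher and 1689 lower between stem and non-stem cells (1175 and 2171 as deposited), 1135 and 1031 on the Ehf knockout array (796 and 1621) and 1413 and 1453 between the mutants (1891 and 1066), and cyclic loess gave 1099 and 652 on the LncGata6 mutant array (861 and 924) and 1100 and 1038 on the Ehf knockout array. With a difference of at least 2, the LncGata6 mutant split was 280 and 150. Median centring moved the Ehf knockout array and the contrast between the mutants by over 10 percentage points too, to 968 and 1228 and to 1589 and 1372. As deposited, the median difference of all genes was -0.20 for Ehf knockout against wild-type stem, 0.13 between the mutants and -0.11 between stem and non-stem cells, shifts that the 3 scalings bring near 0. The causes were not tested.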

Other observations

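Other metal genes differed between the arrays without following Mt1 and Mt2. On the Ehf knockout array, 3 of 8 iron handling genes were higher than on the wild-type stem array and 1 was lower. Slc40a1, for the iron exporter ferroportin, read 6.70 on the Ehf knockout array against 3.33 on the wild-type stem array, at least 2.11-fold higher. Slc11a1, for a metal transporter of phagosomes, was at least 1.32-fold higher and Ftl1, a ferritin light chain gene, 2.13-fold. Hmox1, for the haem-degrading oxygenase, read 8.23 on the Ehf knockout array against 4.02 on the wild-type stem array, at least 6.10-fold higher, while 4 of the 8 measured glutathione and NRF2 target genes were lower. All 6 macrophage markers and both measured red cell markers were above the limit on that array, and their part in these values was not tested.

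On the LncGata6 mutant array, Heph, for the basolateral copper-dependent ferroxidase of enterocytes, read 7.81 against 5.33 on the wild-type stem array, at least 4.54-fold higher. Tfrc, the transferrin receptor gene, read 5.28 against 7.09, at least 3.45-fold lower. Of 9 copper handling genes, 0 were called on the LncGata6 mutant array (median 0.03), 1 was higher on the Ehf knockout array and 5 were lower on the wild-type stem array than on the non-stem array, among them Ccs, the copper chaperone of superoxide dismutase (at least 2.64-fold), and Sod1 (3.48-fold).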
